A study of Mus musculus with 22 samples.

Results

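Late Anterior PSM cells are the cells of mouse gastruloids that the deposited annotation places at the front end of the presomitic mesoderm (PSM), the unsegmented tissue from which somites form. They were taken as every cell carrying that name in the deposited cell table, 2109 of 77674 cells (2.72%), which makes them 1 of 25 named cell types. Gastruloids are cultured aggregates of mouse embryonic stem cells in which tissues like those of the early embryo arise. All came from the wild-type E14Tg2A line, seeded at 300 cells per well, left for 48 h and then given 3 µM CHIR99021, which switches on the Wnt pathway by blocking GSK3, so no group was without this treatment. The study asked how far gastruloids of the same age differ. Its droplet lanes comprised unlabelled lanes of days 3 and 4, a first MULTI-seq experiment of day 5, a second of days 3 to 4.5, and the third, of days 3, 3.5, 4, 4.5 and 5. MULTI-seq marks the cells of each gastruloid with a lipid-anchored barcode, so that its cells can be told apart after pooling. Gastruloids have no extra-embryonic tissues, and all of these came from a single cell line.

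In the embryo, PSM cells leave the tailbud, keep an oscillating clock of Notch, FGF and Wnt targets such as Hes7 and Lfng while they stay posterior, and are reached at the front by a zone of falling Wnt and FGF activity called the determination front. There the T-box factor Tbx6 and Notch signalling switch on Mesp2, which sets the next segment border, and Ripply proteins then end Tbx6 and Mesp2 activity. Retinoic acid, made by the enzyme Aldh1a2 in the anterior PSM and somites, opposes FGF signals from behind. Hox genes of higher number switch on later and mark more posterior levels of the body.

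The type was present in 15 of 18 lanes. Of its cells, 1850 were assigned to 1 gastruloid each. The other 259 were doublets, negative or from lanes without gastruloid calls and entered no sum. In the pools where barcode doublets were called, 8.17% of the type (110 of 1346 cells) and 7.37% of all cells were barcode doublets. Only 3 cell barcode sequences of the type occurred in more than 1 lane, against 732 of 76944 over all cells. Lanes held 64703013 to 307883815 UMIs (unique molecular identifiers, each counting a captured RNA molecule). The median cell of the type had 7489 to 14107.5 UMIs per lane in the first experiment, 18764.5 to 25278 in the second and 25279 to 36151 in the third. The mitochondrial share of UMIs was 1.93% to 2.46% per lane in the third experiment and 5.10% to 5.28% in the others. Replicates were gastruloids. UMIs of the type were summed per gastruloid where it had at least 10 such cells, which gave 10 sums at day 4 in the third experiment, 9 at day 4.5, 15 at day 5, and 19 at day 5 in the first experiment. Lanes of a pool were splits of the same cells and not replicates.

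Of the 4 marker genes, Ripply2 and Mesp2 set the type apart from the neighbours compared, while it shared Lfng and Meox1 with somites. Early Anterior PSM, on average 0.445% of PSM and somite cells at day 5 of the third experiment, was not one of those neighbours. Because the names come from clusters of these same expression values, the levels are a description with no test. They are in CPM, a gene's UMIs scaled to the same fixed total in every sum, at day 5 of the third experiment. Ripply2, which encodes a repressor partner that shuts off Tbx6 and Mesp2, was at 201, 304 and 774 CPM (lowest, median and highest of 15 gastruloids) in Late Anterior PSM. Its highest value in any gastruloid's Somites (n = 12) was 13.5 and in Late Posterior PSM (n = 16) 9.91. Mesp2, the segment border factor, was at 80.4, 128 and 193 CPM, while Late Posterior PSM reached 38.1 at most and Somites 11.9. No gastruloid of these neighbouring types overlapped with the type for either gene. Lfng, a glycosyltransferase that modifies Notch, was at 166 ± 37.3 CPM (SD, n = 15) in the type and at 150 ± 25.1 in Somites (n = 12), so that these neighbours overlapped, with 32.7 ± 9.14 in Late Posterior PSM and 2.16 ± 0.985 in Mature Somites (n = 16). Meox1, a homeobox factor of somites, lay between, at 27.6 ± 18.4 CPM in Late Posterior PSM, 234 ± 50.1 in the type, 425 ± 83.1 in Somites and 483 ± 60.6 in Mature Somites. In the first experiment the same order held for Ripply2 (271 ± 104 CPM in the type, n = 19, against 11.5 ± 25.3 in Somites, n = 13) and Mesp2 (177 ± 75.6 against 21.6 ± 12.4 in Late Posterior PSM, n = 22, and 11.1 ± 20.9 in Somites). Mesp2 overlapped there with Somites, whose highest value of 69.3 CPM lay above the lowest of the type, 52.9. Lfng was there lower in the type (175 ± 38.4) than in Somites (250 ± 74.7).

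**Figure D1:**
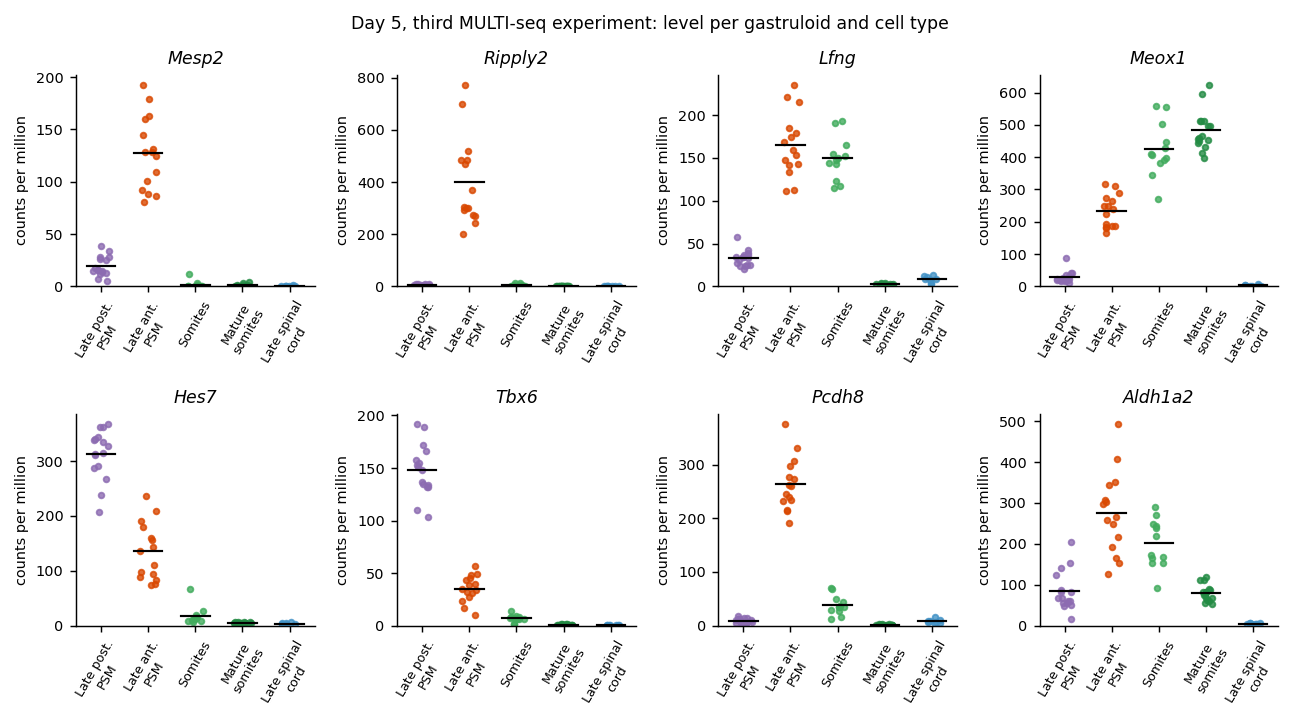
CPM of 8 genes (vertical axes) in 5 cell types (horizontal axes) at day 5 of the third experiment, where each point is 1 gastruloid with at least 10 cells of the type and the bar is the mean. Ripply2, Mesp2 and Pcdh8 peak in Late Anterior PSM, Hes7 and Tbx6 fall from Late Posterior PSM forward, and Meox1 rises toward the somites.

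The following sequences lie just before the annotated start of genes that define this front zone, and are shown because these genes are textbook targets of Notch, T-box or bHLH factors that the type expresses. They come from RefSeq (build GRCm38.p6), 5′ to 3′ on the coding strand, 110 bases each. Capitals mark 3 motifs searched on both strands, the E-box CANNTG, the core TGGGAA of the Notch effector RBPJ, which reads TTCCCA on the other strand, and the T-box core GTGTGA, which reads TCACAC there. Mesp2 is from chr7:79810597-79810706, Ripply2 from chr9:87015377-87015486, Lfng from chr5:140607181-140607290 and Hes7 from chr11:69120253-69120362, all on the plus strand.
Mesp2: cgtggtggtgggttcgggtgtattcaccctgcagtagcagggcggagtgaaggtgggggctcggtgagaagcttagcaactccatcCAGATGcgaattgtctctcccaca
Ripply2: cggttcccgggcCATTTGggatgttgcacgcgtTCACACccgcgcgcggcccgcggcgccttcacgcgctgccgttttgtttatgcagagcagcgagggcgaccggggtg
Lfng: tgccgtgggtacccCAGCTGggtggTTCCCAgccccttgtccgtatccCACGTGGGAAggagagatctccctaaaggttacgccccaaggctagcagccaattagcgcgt
Hes7: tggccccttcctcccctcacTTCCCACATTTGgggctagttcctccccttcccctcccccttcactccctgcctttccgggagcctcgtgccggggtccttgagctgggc
In the Mesp2 window an E-box starts 44 bases before the start of the gene. Ripply2 holds an E-box at 148 and a T-box core at 127 bases before its start. Lfng holds RBPJ cores at 135 and 108 and E-boxes at 146 and 112 bases before its start, and the second RBPJ core overlaps the last bases of the E-box CACGTG. In Hes7 an RBPJ core at 180 directly adjoins an E-box at 174. Over 32851 promoters, 66.2% held the E-box within 250 bases before the start, 21.6% the RBPJ core and 12.3% the T-box core, so single matches are common, and a match is not evidence of binding.

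Genes were also ranked by the ratio of their level in the type to that in the next highest of 6 other types. Early Anterior PSM was not among these types. This ranking used day 5 sums of the first and the third experiments and genes of at least 50 CPM in the type, and it is a description. Of 2894 such genes, 395 were highest in Late Anterior PSM. An even split over the type and the 6 others would give about as many. The genes were kept by their level in the type itself, so that split is not the number to expect. No conclusion is drawn from this count. Ripply2 led with a ratio of 40.8, followed by Mesp2 at 7.53 and Pcdh8, a protocadherin, at 6.82. Rnd3 stood at 4.39 (125 ± 32.3 CPM against 28.2 ± 6.71 in Late Posterior PSM in the third experiment). Hoxd1, a Hox gene of low number, stood at 3.61. In the third experiment it was at 55.8 to 94.8 CPM in the type and 0 to 54.8 in Somites, a narrow gap. The ranges overlapped in the first experiment, at 33.6 to 158 CPM in the type and 4.67 to 53.3 in Somites. The others were Synm, Camk2n1, Pdhx, Zbtb18, Epha4, Mesp1, Pcdh19, Man2a1, Elf1 and Magi1, with ratios from 3.53 down to 2.06. Pcdh8 was at 264 ± 48.9 CPM (n = 15) in the third experiment, against 38.3 ± 17.6 in Somites and 9.32 ± 4.35 in Late Posterior PSM. Epha4, an ephrin receptor of segment borders, was at 223 ± 35.2 CPM against 78.9 ± 22.0 in Somites. Mesp1 was more variable, at 31.0, 103 and 204 CPM, and overlapped with Late Posterior PSM (17.2, 55.2 and 103).

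Genes of Notch signalling and of segment borders were described along the axis as well. Notch1, the receptor, was at 422 ± 36.9 CPM in the type and 438 ± 55.2 in Somites, against 168 ± 31.5 in Late Posterior PSM. Nrarp, a feedback inhibitor induced by Notch, was at 210 ± 39.4 CPM in the type, 226 ± 27.6 behind it, 279 ± 40.2 in Somites and 13.9 ± 6.24 in Mature Somites, and in the first experiment Somites were the highest too (478 ± 97.6, against 262 ± 60.6 in the type). Heyl, another Notch target, was at 2.91 ± 2.72 CPM in the type and 22.1 ± 6.16 in Somites, without overlap. Efnb2, the ephrin partner of Epha4 at segment borders, went from 26.4 ± 7.64 CPM in Late Posterior PSM to 170 ± 32.1 in the type and 223 ± 28.2 in Somites. Cer1, a secreted antagonist of Nodal and BMP, was at 69.7 ± 20.9 CPM in the type, 74.2 ± 31.0 in Somites and 0.565 ± 1.62 in Late Posterior PSM. Pcdh19 was at 282 ± 37.8 CPM in the type, above all gastruloids of Late Posterior PSM (130 ± 31.5) and Somites (77.9 ± 23.9).

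The type sat between its neighbours for the posterior programme. Hes7, the clock repressor, fell from 313 ± 45.5 CPM in Late Posterior PSM to 136 ± 51.9 in the type and 18.1 ± 16.5 in Somites. Tbx6 followed at 148 ± 24.6, 35.3 ± 12.6 and 6.79 ± 3.21 CPM. Rspo3, a Wnt co-activator, was at 915 ± 90.9, 373 ± 76.9 and 55.2 ± 15.8 CPM. Dll1, a Notch ligand, was as high in the type (271 ± 47.7 CPM) as behind it (309 ± 42.9) within their spread, and dropped to 59.0 ± 24.9 in Somites. Genes of the tailbud were lower than in Late Posterior PSM by varying amounts. Fgf8, the growth factor of the posterior gradient, was at 24.2 ± 13.8 CPM against 170 ± 23.7 behind, and T (brachyury), a T-box factor of the primitive streak and tailbud, at 11.4 ± 6.25 against 68.7 ± 12.5. Cdx2, a homeobox factor of the posterior body, was at 8.40 ± 5.25 CPM against 121 ± 21.7. Msgn1, at 0.0331 ± 0.128 CPM, and Wnt3a, at 0.108 ± 0.293, were close to 0 in the type.

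Genes of the formed somite had partly appeared. Tcf15, a bHLH factor that somites need to become epithelial, was at 899 ± 102 CPM in the type against 140 ± 39.1 in Late Posterior PSM. Aldh1a2 was at 275 ± 99.6 CPM, beside 84.8 ± 47.9 behind and 201 ± 59.0 in Somites. Foxc2, a forkhead factor of paraxial mesoderm, was at 266 ± 32.7 CPM in the type and 162 ± 29.4 in Somites. Uncx, which marks the rear part of each somite, was at 2.35 ± 3.17 CPM in the type and at 109 ± 36.7 in Somites, and these did not overlap. Tbx18, which marks the front part, was at 4.71 ± 3.01 CPM in the type and 2.72 ± 2.24 in Somites. Pax1, a gene of the sclerotome, was at 0.0892 ± 0.244 CPM.

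Markers of other lineages were low. The summed level of the 10 neural genes was 37.4 to 195 CPM per gastruloid in the type and 721 to 1138 in Late Spinal Cord (n = 8). Hes5, which PSM cells also use, made up most of it at 57.1 CPM. Olig3 was at 0 and Sox1 at 0.0945 CPM. The 4 neuromesodermal progenitor genes summed to 22.7 to 54.2 CPM, against 311 to 390 in Late Spinal Cord. Most of the latter was Sox2, at 262 CPM. T, another of the 4, had a higher mean in the type (11.4) than in Late Spinal Cord (5.97). The progenitor cells themselves were not the reference for this sum. Of the 10 cardiopharyngeal and head mesoderm genes, only Prrx2 was above 10 CPM, at 105 beside 294 in Somites, with Nkx2-5 and Hand1 at 0. Endoderm genes summed to 0 to 16.9 CPM, endothelial genes to 0 to 4.23 with Cdh5 at 0, and pluripotency genes to 0 to 3.87 with Nanog at 0.

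In single cells the markers were detected in part of the cells only. Each cell was thinned to 4000 UMIs to compare cells of unequal depth. At day 5 of the third experiment (558 cells, median 24948 UMIs) Ripply2 was found in 42.1% of cells (95% exact binomial interval 38.0 to 46.3; intervals here cover counting error only), Mesp2 in 25.1% (21.5 to 28.9), Lfng in 39.1% and Meox1 in 48.7%. Without thinning the shares were 63.4%, 43.5%, 77.1% and 86.0%. In Late Spinal Cord cells, taken as a background outside the mesoderm (2098 cells, median 31399 UMIs), the thinned shares were 0.0953%, 0.334%, 2.62% and 0.858% and the unthinned shares 1.10%, 1.29%, 24.6% and 5.96%. Of the 4 markers, Lfng had the highest share in these cells. In the first experiment (633 cells, median 10134 UMIs) the thinned shares in the type were 36.8%, 29.4%, 42.3% and 61.3%. Hes7 was found in 31.2% of cells of the type at day 5 of the third experiment, against 61.6% in Late Posterior PSM and 7.76% in Somites.

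Within the type, Mesp2 was detected in a larger share of cells with Mesp1 or Dll1 than of cells without. This was read after thinning to 10000 UMIs, in 557 of the 558 day 5 cells of the third experiment, and cells of a gastruloid are not replicates, so no test is given. Mesp2 was found in 69.0% (61.5 to 75.8) of the 171 cells with Mesp1, its paralogue, and in 17.9% (14.2 to 22.1) of those without. The sources used here do not say how reads that fit both paralogues were counted. Mesp2 was found in 41.2% (36.5 to 46.1) of cells with Dll1 and in 9.63% (5.23 to 15.9) of those without. At day 4 the figures for Mesp1 were 69.2% and 24.0%, and for Dll1 42.9% and 8.62%. Ripply2 was found in 62.3% of cells with Lfng and in 40.0% of those without. For the pair Mesp2 and Ripply2, Mesp2 was found in 40.9% (35.3 to 46.8) of cells with Ripply2 and 25.1% (19.9 to 30.8) of those without. Mesp2 was found in 33.8% of cells with Meox1 and in 33.1% of those without. Hes7 was found in 41.2% (36.3 to 46.3) of cells with Meox1 and in 59.8% (52.0 to 67.2) of those without, and Tbx6 in 22.2% and 34.9%.

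The deposited mapping to embryo cells gave these cells mostly somitic names. Over all experiments and days, 47.6% of the 2109 cells were mapped to Somitic mesoderm, 27.0% to Posterior somitic tissues, 16.6% to Intermediate mesoderm, 6.40% to Dermomyotome and 2.09% to Presomitic mesoderm. The mapping used the expression of the same cells, so what follows is a description. At day 5 of the third experiment the 34 cells mapped to Dermomyotome had Meox1 in 100% and Hes7 in 8.82%. The 28 mapped to Intermediate mesoderm had Hes7 in 78.6%, Tbx6 in 53.6% and Meox1 in 57.1%, also at 10000 UMIs. Per gastruloid, the share mapped to Posterior somitic tissues was 16.9% ± 6.96 (SD, n = 10) at day 4, 33.9% ± 11.9 (n = 9) at day 4.5 and 45.0% ± 9.62 (n = 15) at day 5 in the third experiment. The share mapped to Intermediate mesoderm was 22.2% ± 13.9 at day 4 and 5.40% ± 6.04 at day 5 in these gastruloids. In the first experiment it was 25.8% ± 9.48 (n = 19), so that the pooled order of these names did not hold there or at day 4. Posterior somitic tissues made up 14.2% ± 5.80 in the first experiment, and its highest gastruloid, at 23.5%, lay below the lowest of the third at day 5, at 28.9%.

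Late Anterior PSM cells were first found at day 4, and their share varied widely between gastruloids of the same age. In the third experiment 0 of 5778 cells at day 3 and 0 of 4679 at day 3.5 were of the type. By counting error alone this allows shares of up to 0.0519% and 0.0641%. These limits treat cells as independent and leave out the spread between gastruloids. At day 4 they made up 2.47% ± 1.91 of a gastruloid's cells (n = 16), from 0 through a median of 2.73 to 6.73, and 14 of the 16 had some. The values were 4.57% ± 2.70 (n = 16; 0, 5.59 and 9.13) at day 4.5, 5.55% ± 2.80 (n = 16; 0.709, 5.51 and 12.4) at day 5, and 6.27% ± 3.72 (n = 24; 0, 6.22 and 13.7) at day 5 in the first experiment. In the second experiment 0.652% ± 1.01 (n = 11) at day 4 stood against 2.55% ± 1.99 (n = 12) at day 4.5, a difference of 1.90 percentage points (two-sided permutation test, p = 0.0114, adjusted p = 0.0338 over 19 types, of which 7 were called). In that pool 9 of 12 gastruloids at day 4.5 and 4 of 11 at day 4 held any cell of the type, so that the day 4 median was 0. The call was lost without lane 2 of the pool (1.07 points, permutation, adjusted p = 0.179) and in gastruloids of at least 100 cells (1.59 points, adjusted p = 0.187), and edgeR's test of the cell numbers did not call it (log2 1.65, adjusted p = 0.0689). Day 5 differed from day 4.5 by 0.973 points (permutation, p = 0.326, adjusted p = 0.617, 0 of 11 types called), and the third from the first experiment by -0.720 (permutation, p = 0.516, adjusted p = 0.701, 1 of 11 types called). Neither was larger than the spread between gastruloids.

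**Figure D2:**
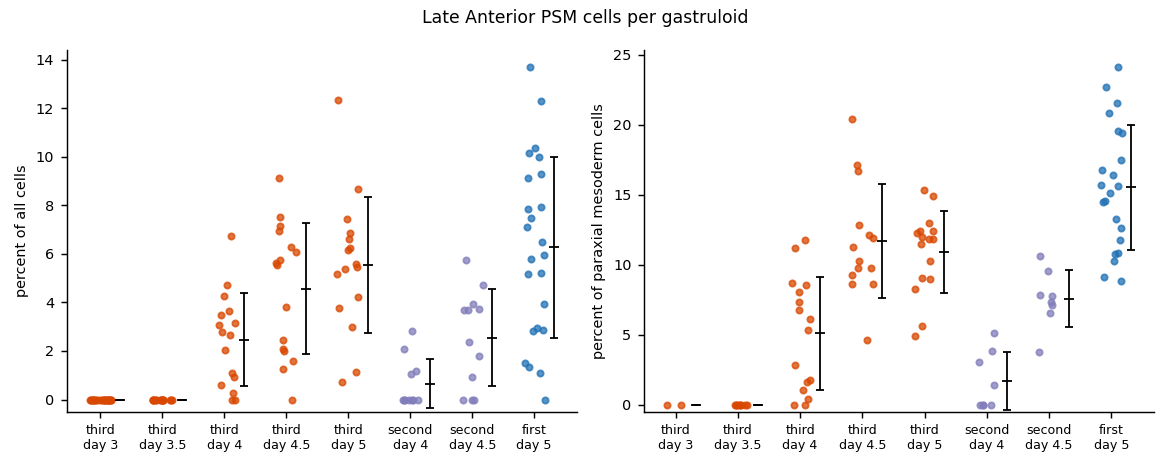
Percent of all cells (left) and of paraxial mesoderm cells (right) that were Late Anterior PSM, by experiment and day on the horizontal axes. Each point is 1 gastruloid (at least 30 cells, or 30 paraxial cells), and the bars are the mean and SD; the type is absent at days 3 and 3.5, and the first experiment lies above the third on the right.

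The differences between gastruloids were repeated in the lanes that split a pool. Shares from lane pairs correlated across the same 16 gastruloids at day 5 of the third experiment with r = 0.606 to 0.766. The variance between gastruloids was 7.54 times what binomial sampling of their cells gives, and that between lanes of a gastruloid 0.947 times. The ratios were 8.44 and 1.11 in the first experiment and 12.7 and 0.772 at day 4.

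The type was also measured against the paraxial mesoderm alone. Of cells named Early or Late Posterior PSM, Early or Late Anterior PSM, Somites or Mature Somites, it made up 5.09% ± 4.02 at day 4 (n = 16), 11.7% ± 4.07 at day 4.5 (n = 14) and 10.9% ± 2.92 at day 5 (n = 16) in the third experiment. Over the same days Early Anterior PSM was at 24.3%, 5.02% and 0.445% and Mature Somites at 14.4%, 44.3% and 64.8%. Days 4 and 4.5 were in different pools and were not tested against each other for shares in this experiment. The change from day 4.5 to 5 was -0.760 points (permutation, adjusted p = 0.560), while 5 of the 6 paraxial types were called. It was 0.123 points with at least 60 paraxial cells and 0.638, -0.209 and 0.483 without lanes A, B and C, and it turned to 10.7 points (permutation, adjusted p = 0.000275) when Mature Somites were left out of the denominator. In the first experiment the share was 15.5% ± 4.45 (n = 22), and the third was lower by a difference of -4.62 points (two-sided permutation test, p = 0.00102, adjusted p = 0.00204 over 6 types, of which 4 were called), with 0 of 16 gastruloids above the first experiment's median. Without Mature Somites, which made up 44.1% of paraxial cells in the first experiment, that difference was 2.97 points (permutation, adjusted p = 0.221). Experiment, culture and library cannot be told apart here.

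Relative to all cells, gastruloids with more Mature Somites also held more Late Anterior PSM cells. At day 5 of the third experiment Pearson's r between both shares was 0.829 (permutation p = 1e-05, the smallest these resamples can give, adjusted p = 6e-05 over 6 relations; Spearman's rho 0.759, adjusted p = 0.00708; n = 16). Leaving out the 2 farthest gastruloids gave 0.728. It was 0.504 in the first experiment (n = 22, permutation, adjusted p = 0.0388; rho 0.575, adjusted p = 0.0169; r 0.618 without 2). At day 4.5 it was 0.625 (n = 14, permutation, adjusted p = 0.0388; rho 0.648, adjusted p = 0.0296; r 0.585 without 2). Both shares have the same denominator, and the neural share of a gastruloid ran from 5.67% to 73.7% among the day 5 sums of the third experiment. Over cells that are not neural r was -0.123, -0.379 and -0.406, with permutation adjusted p of 0.649, 0.122 and 0.182 (rho -0.0353, -0.370 and -0.301), so the relation was not found on that denominator.

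From day 4.5 to day 5, in gastruloids that shared 1 pool and its 3 lanes, 6 of 11 Hox genes of groups 6 to 9 rose in the type and 3 of 7 retinoic acid genes fell, while the 4 markers did not pass the test. The fits are conditional on the cluster names. Levels from here on are CPM scaled by TMM (trimmed mean of M-values, which aligns libraries on genes that change little), folds are log2 and p-values are from edgeR's quasi-likelihood test adjusted over 7818 genes. Of these, 128 (1.64%) rose and 129 (1.65%) fell, 257 (3.29%) in all. That total was 157 without lane B, 119 without lane C and 155 over sums of at least 20 cells.

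Hox genes give positional identity along the body axis. Of 24 Hox genes tested, 6 rose and 1 fell (median log2 change 0.07, against 0.00 over all genes). All 6 that rose were in groups 6 to 9, at 1 of 2, 1 of 2, 1 of 3 and 3 of 4 genes, and the 1 that fell, Hoxa2, was in group 2. Hoxa7 was at 18.7, 31.5 and 48.0 CPM (lowest, median, highest of 9) at day 4.5 and at 82.5, 97.6 and 126 (of 15) at day 5, a log2 rise of 1.50 (SE 0.13, adjusted p = 2.3e-17). Hoxc9 was at 0, 0 and 5.16 CPM at day 4.5 and at 11.3, 24.7 and 44.8 at day 5, a rise of 3.57 (SE 0.41, adjusted p = 4.5e-09). Neither gene's days overlapped. Hoxc8 rose by 2.04 and Hoxc6 by 1.80, with overlap. Hoxb9 rose by 0.64 (adjusted p = 0.0205), a call lost without lane A (0.60, adjusted p = 0.0911), B (0.70, adjusted p = 0.0751) or C (0.68, adjusted p = 0.0775). Hoxa9 rose by 2.99 and Hoxa2 fell by 0.71, and both calls were lost without lane C (2.30 and -0.20, adjusted p = 0.141 and 0.798), that of Hoxa9 also over sums of at least 20 cells (4.06, adjusted p = 0.0552).

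Hox levels also differed along the axis. On the unscaled CPM of all UMIs, Hoxc9 was at 0.218 ± 0.471 (n = 10), 1.66 ± 2.09 (n = 9) and 22.2 ± 10.8 (n = 15) in Late Anterior PSM over days 4, 4.5 and 5. It was at 5.49 ± 2.28 (n = 14), 27.2 ± 11.6 (n = 12) and 103 ± 27.5 (n = 16) in Late Posterior PSM behind it. The day 5 level in the type was thus near the level that Late Posterior PSM had at day 4.5, and the values overlap. Hoxa7 went differently, with 4.28 ± 3.62, 32.7 ± 9.73 and 93.1 ± 13.0 CPM in the type and 9.83 ± 4.21, 27.7 ± 8.15 and 60.8 ± 11.1 in Late Posterior PSM, lower behind the type at day 5. These comparisons between types carry no test.

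**Figure D3:**
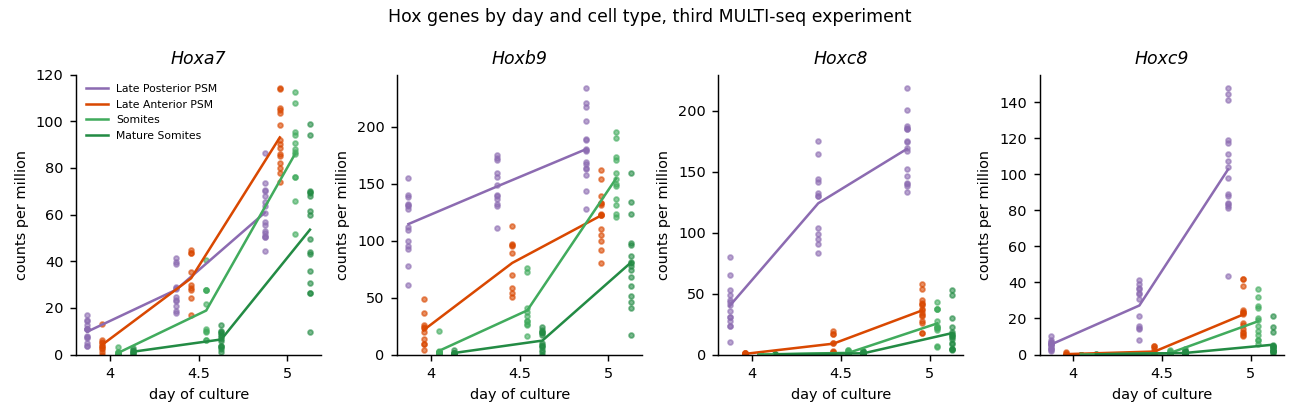
CPM (vertical axes) of 4 Hox genes at days 4, 4.5 and 5 (horizontal axes) in 4 paraxial cell types of the third experiment; points are gastruloids, lines join the means, and days 4 and 4.5 come from different pools. Hoxc8 and Hoxc9 are highest in Late Posterior PSM on each day, while Hoxa7 at day 5 has its highest mean in Late Anterior PSM (93.1).

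Of 7 retinoic acid genes tested, 0 rose and 3 fell (median -0.34). Crabp1, a carrier that binds retinoic acid in the cell, was at 166, 308 and 588 CPM at day 4.5 and at 58.4, 102 and 135 at day 5, a fall of 1.61 on the log2 scale (SE 0.16, adjusted p = 2.0e-10). The days did not overlap. Aldh1a2, the synthesis enzyme, went from 517, 628 and 768 CPM to 142, 288 and 523, a change of -1.09 (SE 0.15, adjusted p = 1.6e-06), and the highest day 5 gastruloid lay just above the lowest of day 4.5. Crabp2 was at 40.0 ± 14.3 CPM at day 5 and 39.4 ± 13.1 at day 4.5 (adjusted p = 0.996).

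Genes outside the Hox and retinoic acid lists were also among the 10 of smallest p in each direction. Cdkn1c, a cell cycle inhibitor, was at 98.4, 153 and 196 CPM at day 4.5 and 158, 320 and 642 at day 5, a rise of 1.17 (SE 0.20, adjusted p = 0.00012). Ccnd1, a G1 cyclin, rose by 0.88 (SE 0.17, adjusted p = 0.00043). These were the 2 of 23 cell cycle genes that rose, and 0 fell (median -0.02). Slc16a3, a lactate exporter, rose by 1.46 and P4ha1, a collagen prolyl hydroxylase, by 0.69. Prnp, Tunar and Ntn1, a netrin, rose by 1.37, 2.01 and 0.66. Pbx3, a cofactor of Hox proteins, fell from 68.4 ± 14.9 to 32.3 ± 5.97 CPM (log2 -1.05, SE 0.14, adjusted p = 5.5e-07) and did not overlap. Gap43, Rtn1, Prrx2, Prtg, Plxna2, Rasgrp3 and Iqgap2 fell by log2 changes between -0.55 and -1.80.

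Among 17 adhesion and matrix genes 0 rose and 3 fell (median -0.06). Pcdh19, a protocadherin, fell from 434 ± 30.6 to 306 ± 38.8 CPM without overlap (log2 -0.50, SE 0.07, adjusted p = 6.3e-08). Fst, which encodes the BMP and activin antagonist follistatin, changed by -0.94. Fn1, fibronectin, changed by -0.37, a call lost without lane B (-0.23, adjusted p = 0.115) and over sums of at least 20 cells (-0.24, adjusted p = 0.0903). Of 9 somite genes Foxd1, a forkhead factor, rose from 60.3 ± 27.4 to 118 ± 30.5 CPM (0.99, adjusted p = 0.0011), and Aldh1a2 and Sim1 fell, the latter not without lane B (-0.35, adjusted p = 0.579) or C (-0.74, adjusted p = 0.0921), or over sums of at least 20 cells (-0.62, adjusted p = 0.232). Of 22 Notch and clock genes Hey1 rose (0.59) and Maml3 fell (-0.35), calls lost without any of the lanes for Hey1 (0.49 to 0.70) and without lane B or C for Maml3 (-0.30 and -0.27). Both were also lost with no filter on low counts, over sums of at least 20 cells and with only both groups fitted (adjusted p of 0.0743, 0.306 and 0.0854 for Hey1 and 0.0762, 0.142 and 0.0503 for Maml3), and Hey1 over sums of at least 5 cells (adjusted p = 0.0735).

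The marker genes and those of border formation showed no called change. Of 7 posterior PSM genes and 11 determination front and border genes tested, 0 rose and 0 fell (medians -0.31 and 0.15), beside 3.29% of all genes called, a share at which a count of 0 in lists of this size says little. Meox1 was at 140, 165 and 259 CPM at day 4.5 and at 181, 261 and 360 at day 5 (log2 0.49, SE 0.17, adjusted p = 0.104). Mesp2 was at 107 ± 59.8 and 139 ± 38.8 CPM (0.31, SE 0.25, adjusted p = 0.614), a direction that turned without lane B (-0.11). Lfng (0.17, SE 0.14) and Ripply2 (0.15, SE 0.23) had adjusted p of 0.617 and 0.831. The direction of Ripply2 turned over sums of at least 20 cells (-0.12) and without lane B (-0.32; 0.58 without lane A). All 4 overlapped between days, and with these errors rises such as that of Meox1 are not shown to be absent.

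**Figure D4:**
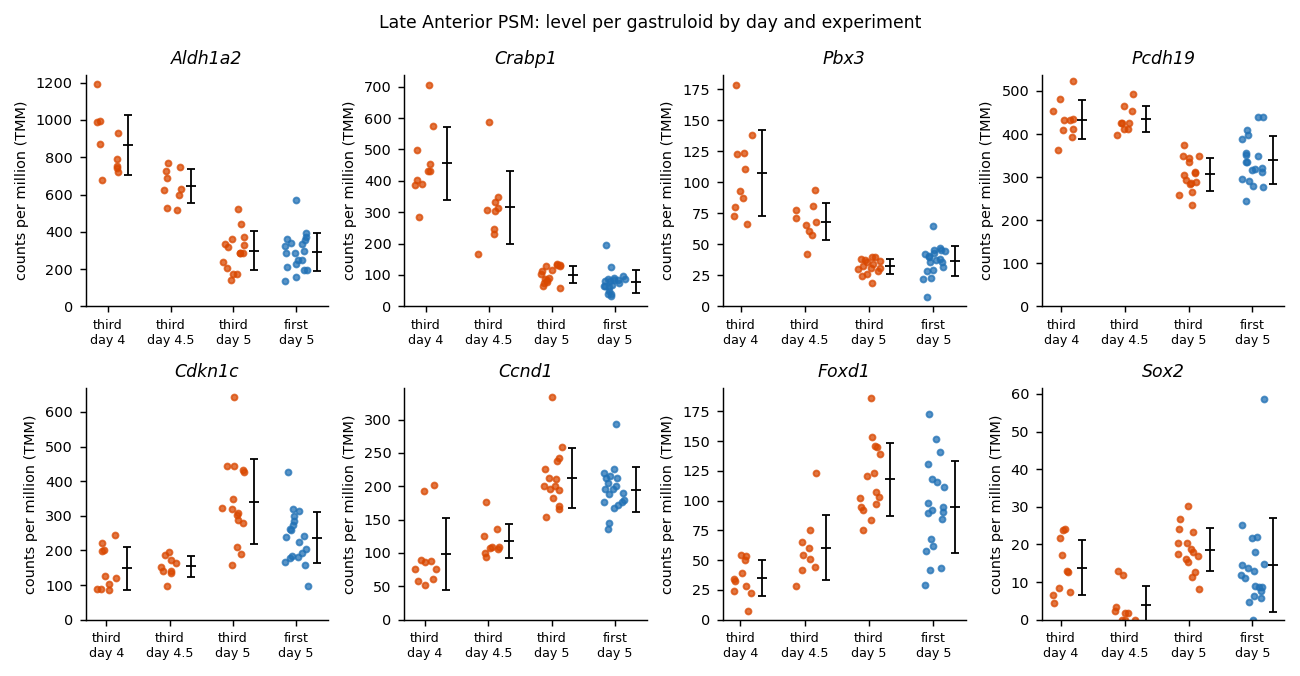
TMM-scaled CPM (vertical axes) of 8 genes in Late Anterior PSM, by experiment and day (horizontal axes). Points are gastruloids and bars the mean and SD; Crabp1, Pbx3 and Pcdh19 do not overlap between days 4.5 and 5 of the third experiment, and the mean of Aldh1a2 is lower at each later day of that experiment.

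Some genes from the lists of other cell types also changed between these days. Of these, Prrx2, Stmn2 and Sox2 had higher means in Somites than in the type at day 5 of the third experiment. On CPM of all UMIs Prrx2 was at 294 ± 39.3 in Somites and 105 ± 27.3 in the type. Stmn2 was at 36.9 ± 22.1 in Somites, 21.2 ± 8.72 in the type and 17.2 ± 7.01 in Late Spinal Cord. Sox2, a neural and progenitor factor, was at 23.7 ± 12.9 in Somites, 23.1 ± 8.80 in Late Posterior PSM and 17.1 ± 5.07 in the type. In Late Spinal Cord it was at 262 ± 22.7. On the TMM scale Sox2 rose in the type from 3.82 ± 5.04 to 18.6 ± 5.83 CPM (log2 2.03, SE 0.39, adjusted p = 0.00051), a call lost over sums of at least 20 cells (1.56, adjusted p = 0.0612). At day 4, in another pool, it was at 13.9 ± 7.39 CPM, so that day 4.5 was the lowest of the 3 days. At 4000 UMIs it was found in 6.48% of cells of the type at day 4, 1.44% at day 4.5 and 6.45% at day 5, the last against 8.09% in Late Posterior PSM and 62.4% in Late Spinal Cord. The neural list summed to 26.6 to 131 CPM at day 4.5 and 37.4 to 195 at day 5. Stmn2, a neuronal gene, fell (-1.58, adjusted p = 0.00011), with Neurog1 and Neurog2 at 0 at day 5, and the neuronal list summed to 20.6 to 385 CPM at day 4.5 (next highest 79.0), the 385 from 1 gastruloid with 14 cells of the type, and to 6.77 to 42.3 at day 5. Of 2 cardiopharyngeal genes tested both fell, Prrx2 by -0.86 and Isl1 by -1.53, the latter not without lane C (-0.97, adjusted p = 0.328) or over sums of at least 20 cells (-1.23, adjusted p = 0.0924). That list summed to 145 to 260 CPM at day 4.5 and 79.2 to 187 at day 5. The part of other cells in these results was not tested, and in summed counts fewer expressing cells and less RNA per cell cannot be told apart.

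Between days 4 and 4.5 of the third experiment 33.1% of genes passed the test (16.9% higher and 16.3% lower at day 4.5), and because the days came from different pools, day and pool cannot be told apart. These values share the day 4.5 sums with the comparison above. Of 24 Hox genes 12 rose and 2 fell (median 0.51, against -0.02 over all genes). Groups 6, 7 and 8 rose at 2 of 2, 2 of 2 and 3 of 3 genes, and group 9 at 2 of 4. Of these 9 genes, Hoxb6 and Hoxc9 were not called without lane C of the day 4 pool (0.56 and 1.93, adjusted p = 0.0557 and 0.105) or lane B (0.62 and 2.27, adjusted p = 0.0921 and 0.0823) or C (0.59 and 1.98, adjusted p = 0.140 and 0.0750) of the day 4.5 pool. Neither was called over sums of at least 20 cells (0.49 and 2.53, adjusted p = 0.171 and 0.0830), nor Hoxb6 with only both groups fitted (adjusted p = 0.0611) or Hoxc9 with no filter on low counts (adjusted p = 0.0695). Hoxa5, Hoxd1 and, among the genes that fell, Hoxa2 also lost their calls with a lane left out, at 0.38 to 0.52 for Hoxa5 (without lane C of the day 4 pool or lane B or C of the day 4.5 pool), 0.15 to 0.41 for Hoxd1 (lane B or C, or lane A) and -0.39 to -0.26 for Hoxa2 (lane C, or lane A or B). All 3 were lost over sums of at least 20 cells too (adjusted p = 0.503, 0.215 and 0.246), Hoxa5 and Hoxa2 over sums of at least 5 (adjusted p = 0.0502 and 0.0601), Hoxa5 and Hoxd1 with only both groups fitted (adjusted p = 0.0909 and 0.108) and Hoxd1 with no filter on low counts (adjusted p = 0.0843). Hoxa7 was at 0, 3.43 and 12.4 CPM at day 4 (n = 10) against 18.7, 31.5 and 48.0 at day 4.5, a rise of 2.85 (SE 0.21, adjusted p = 3.5e-21). Hoxb9 rose by 2.02 and Hoxc8 by 3.88, also without overlap. Hoxb7 rose by 1.67, and its days did not overlap on the TMM scale but did on CPM of all UMIs (highest of day 4 at 38.4, lowest of day 4.5 at 34.7). Hoxd3 fell by 0.61 on the log2 scale.

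Of 7 posterior PSM genes, 4 were higher at day 4.5 and 0 lower in that comparison (median 0.37), and of these Hes7 and Tbx6 stayed called under each alternative. Hes7 was at 21.5 to 164 CPM at day 4 and 101 to 195 at day 4.5 (0.78, adjusted p = 0.00815), and Tbx6 rose by 0.70 (adjusted p = 0.0068). Dll3 (0.30) was not called without lane C of the day 4 pool (0.23, adjusted p = 0.0713), nor Rspo3 (0.37) without lane A of it (0.33, adjusted p = 0.0563) or lane C of the day 4.5 pool (0.33, adjusted p = 0.143). Rspo3 was also lost in DESeq2 (adjusted p = 0.0888), with no filter on low counts (adjusted p = 0.0764), with only both groups fitted (adjusted p = 0.0642) and over sums of at least 5 cells (0.19, adjusted p = 0.287). Ripply2 was at 69.0 to 347 CPM and then 194 to 712 (0.96, SE 0.26, adjusted p = 0.0027), but not called without lane A of the day 4.5 pool (0.56, adjusted p = 0.166). Mesp2 (0.16), Lfng (0.28) and Meox1 (0.19) had adjusted p of 0.695, 0.131 and 0.444. Jag1, a Notch ligand, fell from 38.0 ± 10.4 to 16.4 ± 6.34 CPM (-1.15, adjusted p = 2.3e-05), and Nrarp, a Notch target, rose by 0.53. Crabp1 changed by -0.57 (adjusted p = 0.0021) and Aldh1a2 by -0.43 (adjusted p = 0.0274, and 0.0567 without lane A of the day 4.5 pool, 0.0677 with no filter on low counts and 0.184 over sums of at least 20 cells). Tcf15 rose by 0.44, Mki67, a proliferation gene, changed by -0.68 and Nr6a1, a nuclear receptor of the early embryo, by -0.90. Of 81 ribosomal protein genes, a list chosen after their values were seen, 79 were higher at day 4.5 (median 0.35), and 1 of them, Rpl37a (0.60), had the smallest p of the genes that rose.

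In the second experiment 4 gastruloids at day 4.5 had sums. Their Aldh1a2 levels were 645, 586, 745 and 730 CPM of all UMIs and their Hoxa7 levels 15.0, 29.1, 28.1 and 16.5, while Hoxc9 was 0 in all 4. Mesp2 was at 124, 183, 94.7 and 204 CPM and Ripply2 at 315, 328, 97.2 and 464. The gastruloid with the lowest Ripply2 level was thus also the lowest for Mesp2. These were 10 to 15 cells each and entered no comparison of genes.

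At day 5 the third and first experiments differed in 37.6% of genes (17.7% higher and 19.9% lower in the third), led by ribosomal and mitochondrial genes. Experiment, culture, library and depth cannot be told apart, and after thinning each sum to the lowest total (94446 UMIs) 874 of 2344 genes tested were called (37.3%). This thinning matched the totals of the sums, not the UMIs per cell or the number of cells. Of 81 ribosomal protein genes 78 were higher and 1 lower in the third (median 0.56), and of 13 mitochondrially encoded genes 12 were lower and 1 higher (median -1.08). Both lists were chosen after values were seen. Ripply2 was at 127 to 573 CPM in the first and 217 to 856 in the third (0.76, SE 0.21, adjusted p = 0.0033). After thinning its change was 0.64 and not called (adjusted p = 0.103). Meox1 was lower in the third (256 ± 59.0 against 367 ± 106, -0.52, adjusted p = 0.0012). Mesp2 (-0.38) and Lfng (0.12) had adjusted p of 0.138 and 0.446, but without lane B of the third experiment's pool Mesp2 was lower in the third (-0.67, adjusted p = 0.0115). Of 11 border genes 1 was higher and 3 lower in the third, together near the 37.6% of all genes called. The lower ones were Pcdh8 (-0.60), Snai1, a repressor of epithelial genes (-0.62), and Epha4 (-0.30). Epha4 was not called without lane 2 (-0.24, adjusted p = 0.0560) or 3 (-0.26, adjusted p = 0.0650) of the first experiment, or with no filter on low counts (-0.23, adjusted p = 0.0924). Tcf15 was higher by 0.60 and Foxc2 lower (-0.43). Cdx2 was lower in the third under each alternative (-0.90 over sums of at least 20 cells, adjusted p = 0.00963). Prrx2 was higher (0.43 over these sums, adjusted p = 0.0109), but not called after thinning (0.17, adjusted p = 0.537). Of 23 cell cycle genes 1 was higher, Cdkn1c (0.56), and 9 lower, among them Pcna, Mcm2 and Top2a (-0.50, -0.52 and -0.49). After this thinning Cdkn1c was not called (0.46, adjusted p = 0.102), nor were Cdk1 (-0.36, adjusted p = 0.0619), Mcm5 (-0.40, adjusted p = 0.0801) and Mcm7 (-0.26, adjusted p = 0.0922) among the lower genes. Cdk1 was also lost without lane 1 (-0.24, adjusted p = 0.0535) or 2 (-0.23, adjusted p = 0.0858) of the first experiment and without lane A (-0.19, adjusted p = 0.134) or B (-0.23, adjusted p = 0.0617) of the third. It was lost over sums of at least 20 cells too (-0.24, adjusted p = 0.0530). With no filter on low counts Cdk1 (-0.18, adjusted p = 0.273) and Mcm7 (-0.16, adjusted p = 0.0663) were not called.

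The Hox genes of groups 7 to 9 did not pass the test between experiments. Of 24 Hox genes 0 were higher and 6 lower in the third (median -0.11, against -0.05 over all genes). Over all genes 17.7% were higher and 19.9% lower, so the number of lower Hox genes is near that share. Of these 6, 5 were in groups 1 to 4 and the other in group 6. Hoxb2 (-0.60), Hoxd4 (-0.60) and Hoxb1 (-0.49) stayed called under each alternative. The other 3 did not. Hoxb3 was lost after thinning (-0.25, adjusted p = 0.394) and without lane 2 of the first (-0.29, adjusted p = 0.0591) or lane C of the third experiment (-0.23, adjusted p = 0.0814). Hoxb6 was lost without lane 1 (-0.49, adjusted p = 0.0658) or 2 (-0.46, adjusted p = 0.0836) of the first. Hoxd3 was lost without lane 3 of the first (-0.32, adjusted p = 0.131) and without lane B (-0.30, adjusted p = 0.133) or C (-0.36, adjusted p = 0.0623) of the third, and with no filter on low counts (-0.34, adjusted p = 0.0904). Hoxc9 was at 24.1 ± 11.7 CPM in the third and 25.2 ± 10.9 in the first (0.03, SE 0.20, adjusted p = 0.939), and Hoxa7 at 101 ± 13.8 and 88.1 ± 20.6 (0.20, SE 0.09, adjusted p = 0.0697). Aldh1a2 was at 298 ± 104 and 292 ± 101 CPM (-0.01, SE 0.14, adjusted p = 0.961).

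Because the day 5 gastruloids with sums ran from 3.86% to 75.5% neural cells, gene levels in the type were also fitted to that share, with the experiment as a covariate. Gastruloids with fewer than 10 cells of the type had no sum and are in neither this range nor the fit. Of 6283 genes 3.17% passed the test, 121 (1.93%) rising and 78 (1.24%) falling with it. With no filter on low counts the balance was 73 rising and 173 falling, and over sums of at least 20 cells 61 rose. Slopes are log2 changes per 10 percentage points of neural cells. Ero1l, an oxidase of protein folding induced by low oxygen, had a slope of 0.25 (SE 0.03, adjusted p = 1.3e-06), with levels from 9.63 to 55.9 CPM in the third experiment and 17.5 to 120 in the first. The slope was 0.21 (adjusted p = 0.0816) in the third and 0.29 (adjusted p = 1.8e-05) in the first alone. Galk1, galactokinase, had a slope of 0.13 (adjusted p = 2.6e-05; 0.12 and 0.14 within experiments) and Cd63, a tetraspanin of endosomes, 0.11 (0.10 and 0.14), each called within both experiments. Lgals1, galectin-1, had 0.28 and was called in the third alone (0.31, adjusted p = 0.0049), while in the first alone it was too low to be tested. Tpm2, a tropomyosin, had 0.17, which did not pass within the third (0.18, adjusted p = 0.0774) or the first experiment (0.16, adjusted p = 0.127). Within experiments 14 genes passed in the third and 52 in the first.

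Genes of the segmentation programme did not pass this test. Slopes were -0.05 for Mesp2 (SE 0.04, adjusted p = 0.630), 0.03 for Ripply2 (SE 0.05, adjusted p = 0.803), 0.01 for Meox1 and 0.00 for Lfng. Of 9 border, 6 posterior PSM and 19 Notch and clock genes tested, 0 rose and 0 fell, beside the 3.17% of all genes called, a share at which a count of 0 in lists of this size says little. Aldh1a2 fell with the neural share (-0.14, SE 0.04, adjusted p = 0.0303), but not within the third (-0.15, adjusted p = 0.292) or the first (-0.12, adjusted p = 0.443), nor over sums of at least 20 cells (-0.17, adjusted p = 0.0917). Of 21 Hox genes Hoxd4 rose (0.08, adjusted p = 0.0114). Its slope was of like size but not called in the third (0.07, adjusted p = 0.245) or the first experiment alone (0.09, adjusted p = 0.182). Nor was it called with no filter on low counts (0.06, adjusted p = 0.0745) or over sums of at least 20 cells (0.06, adjusted p = 0.194). Tubb2b, Cenpv and Fads2 fell, with slopes of -0.12, -0.14 and -0.17. Tubb2b did not pass in the first experiment alone (-0.12, adjusted p = 0.0920). Cenpv (-0.10, adjusted p = 0.294) and Fads2 (-0.15, adjusted p = 0.141) did not pass in the third alone. Of 81 ribosomal protein genes, a list chosen after values were seen, 31 rose and 0 fell. In the third experiment alone only 7 of all genes tested rose, so most of these 31 did not pass there. Rpl27a, which the rule for named genes picked, was not called with no filter on low counts (0.02, adjusted p = 0.145) or in the third experiment alone (0.04, adjusted p = 0.115). The slope of Sox2 was -0.01 (adjusted p = 0.947). Gastruloids were not assigned their neural share, so other properties that vary with it cannot be told apart from it.

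**Figure D5:**
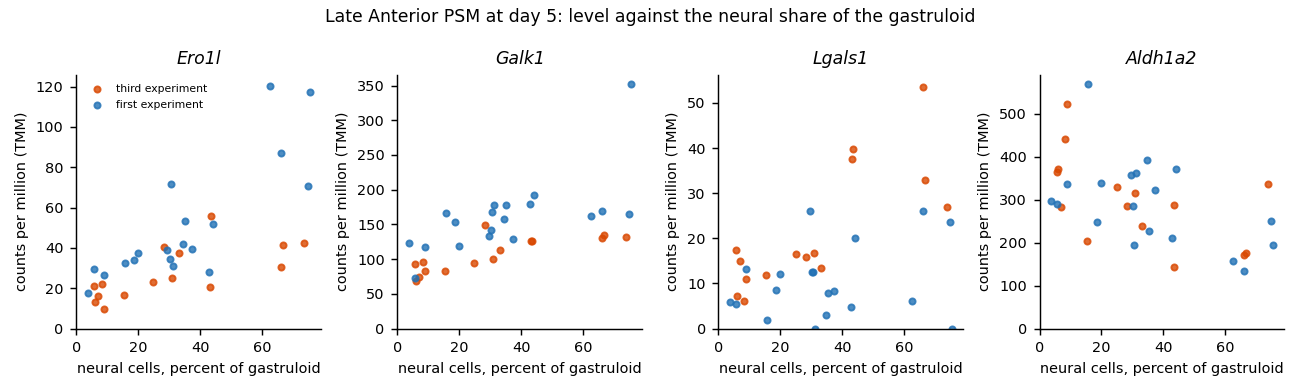
TMM-scaled CPM in Late Anterior PSM at day 5 (vertical axes) against the percent of neural cells in the same gastruloid (horizontal axes) for 4 genes; each point is 1 gastruloid, coloured by experiment. Ero1l and Galk1 have upward slopes in both experiments, that of Ero1l not called in the third alone, and Aldh1a2 is lower over both together.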

How the data were processed

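Per the labels' protocols, libraries were made with 10x Genomics 3′ v3.1 chemistry, and per the submitters' processing notes reads were processed with Cell Ranger 6.0.0 on mm10 and with Seurat. The deposited values are raw UMI counts per gene (32285 genes) and cell for each lane. Cell names, gastruloid barcodes, days and embryo names come from the authors' deposited cell table, and clustering was not repeated. Matrix totals equalled the table's in the second and the third experiments only, and 9 cells of the unlabelled day 4 lane lacked a barcode in the matrix. The day 3 and 3.5 lanes of the second experiment were not used here.

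Counts were summed per gastruloid over lanes (at least 10 cells) and fitted with edgeR 4.0.16 (R 4.3.3; TMM, filterByExpr, robust quasi-likelihood, all groups in 1 fit of 7818 genes, the slope apart), with Benjamini-Hochberg adjustment at 0.05. Shares used gastruloids of at least 30 cells and two-sided permutation tests of 100000 resamples. No doublet caller was run, and barcode doublets were left out of sums and of shares per gastruloid, but not of values per lane or over all cells of the type. The sums held 94446 to 2016581 UMIs. Both tests were checked on simulated data. Genes were named from lists and as the 10 genes of smallest adjusted p in each direction with a log2 change of at least 0.5, and the 15 genes of highest ratio to other types. 1 gene of the lists is not reported here. Members and lists were chosen with earlier results of these data known. Separate gastruloids are separate aggregates of 1 cell line, so p-values measure the spread between aggregates. DESeq2 1.42.0, RLE factors, other filters, cell minimums and left-out lanes were tried as alternatives.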

Additional observations from a re-analysis of the deposited data

Results flagged for a closer look

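Over 112 groups of gastruloid values, 20 held a highest or lowest value far from the others. The rule used allows about 1 in 20 groups by chance if values are normally distributed, which was not checked. Nearly all groups were genes measured in the same gastruloids and so are not independent, and the 20 are listed without a conclusion about chance. Day 5 was not tested in this way. At day 4.5 of the third experiment 1 gastruloid, with 14 cells of the type and 2.69% neural cells, had the highest TMM-scaled CPM of Crabp1 (588, next 349), Gap43 (121, next 54.6), Rtn1 (281, next 155), Stmn2 (247, next 76.1) and Fn1 (547, next 400). The neuronal genes Tubb3 (138 CPM of all UMIs, group median 1.21) and Elavl3 (13.8, median 0) were highest in it too, with Neurog1 and Neurog2 at 0, and their part in these values was not tested. Over sums of at least 20 cells, which leave it out, the day 5 against day 4.5 changes stayed called for Crabp1 (log2 -1.60), Gap43 (-1.70), Rtn1 (-1.27) and Stmn2 (-1.11, adjusted p = 0.0353), and Fn1 did not (-0.24, adjusted p = 0.0903). Other single gastruloids of that day were highest for Ripply2 (712, next 442), Foxd1 (123, next 75.6), Ccnd1 (176, next 135), Hey1 (65.8, next 40.0) and Hoxa9 (8.89, next 2.58).

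At day 4 the same gastruloid, with 47 cells of the type, was highest for Hoxa7 (12.4 CPM, next 6.09), Hoxb6 (39.2, next 20.3), Hoxb7 (36.7, next 21.0) and Hoxb8 (100.1, next 46.4). Another, with 14 cells, was lowest for Tcf15 (286, next 522) and Tnks2 (181, next 232) and highest for Rspo3 (709, next 498). Caprin1 was lowest at 473 CPM (next 538), and Efnb1 (46.5) and Mcm4 (179) were highest in a gastruloid of 20 cells.

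The slope of Npm1 on the neural share differed between experiments at day 5 (the third minus the first 0.066 per 10 percentage points, edgeR interaction term, adjusted p = 0.0499), the single called gene of 6670, with 324 at an unadjusted p under 0.05.

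Lanes without gastruloid calls also held the type, at 1.89% of cells in the unlabelled day 4 lane and at 1.48% and 1.85% in both lanes of pool C of the second experiment. The day 4 lane (46 cells) had 129 CPM of Ripply2 (95% exact Poisson interval 103 to 160, counting error only), 106 of Mesp2, 18.5 of Hoxa7 and 810 of Aldh1a2. Pool C (84 cells, days 4 and 4.5 mixed) had 273 CPM of Ripply2, 106 of Mesp2, 18.4 of Hoxa7 and 638 of Aldh1a2.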

How the results depend on the processing

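No paired analysis was possible because replicate labels name technical lanes of a pool, not gastruloids. Day 5 against day 4.5 gave 257 called genes (128 higher, 129 lower), and 155 (65 higher) over sums of at least 20 cells, 79 higher with only both groups fitted, and 119 to 219 (55 to 116 higher, 64 to 103 lower) with a lane left out. Of 35 called genes named there 26 stayed called under every alternative in which they were tested, of 68 between days 4 and 4.5 40, of 56 between experiments 38 and of 22 slopes 3 (Cd63, Galk1 and Lgals1, the last of which was not tested in the first experiment alone). Thinning to the lowest total left 874 called genes between experiments (424 higher, 450 lower), with fewer genes tested. The 199 slopes became 14 (7 and 7) in the third and 52 (37 and 15) in the first experiment alone, 73 rising and 173 falling with no filter on low counts, and 61 rising over sums of at least 20 cells. With a lane left out the counts ran from 2029 to 2524 between days 4 and 4.5 and from 2385 to 2708 between experiments.

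The share difference of day 4.5 against 4 (second experiment) was 1.59 points in gastruloids of at least 100 cells, 1.07 to 2.57 with a lane left out, and 1.65 on the log2 scale in edgeR on cell numbers (adjusted p = 0.0689). The paraxial difference of day 5 against 4.5 turned to 0.123 points with at least 60 paraxial cells, 10.7 without Mature Somites in the denominator and -0.209 to 0.638 with a lane left out. That between experiments turned to 2.97 without Mature Somites and was -5.12 to -4.24 with a lane left out. Uncalled marker changes turned sign: Ripply2 at day 5 against 4.5 to -0.12 over sums of at least 20 cells and -0.32 (up to 0.58 over left-out lanes) without lane B, Mesp2 to -0.11 (up to 0.39) without lane B, the slope of Meox1 to -0.0061 with no filter, -0.0031 with at least 5 cells and -0.0079 in the third experiment, and that of Lfng to -0.0097, -0.0046 (at least 20 cells) and -0.035 (the third). The cause of these changes was not tested. The day 4.5 sums held 13 to 25 cells each, which limits their precision.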
